A study of Homo sapiens with 36 samples.

Results

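Stable lines labelled MCF-10A that carry hairpins against ATM were compared with lines carrying hairpins against other checkpoint kinases, and the genes that differed in the same direction in both were described. ATM mRNA was among them, at 62.5% of the matched lines in shATM-1 and 54.4% in shATM-3. Of 11048 genes tested, 238 were chosen by the rule that both contrasts pass an adjusted p of 0.05 with the same sign: 192 genes were higher in both ATM lines (1.74% of the genes tested) and 46 were lower (0.416%). The higher genes included 16 from a list of lysosomal genes drawn up after their values were seen. The lower genes included ATM itself and 5 small nucleolar RNAs. Because these contrasts chose the genes, their values in the ATM lines are a description and carry no test.

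MCF-10A is a non-transformed human mammary epithelial line, and every sample bears that label, which marker genes put in doubt for the kinase lines (given with the marker values). The series holds 36 single-colour Illumina BeadChip arrays in 12 groups of 3, described by the submitters as biological replicates. The ATM groups were shATM-1 and shATM-3, and their comparators were shATR-3, shCHK1-3 and shCHK2-2 for shATM-1, and shATR-4, shCHK1-4 and shCHK2-1 for shATM-3, so that 3 arrays stood against 9 in each contrast. All of these lines had received a hairpin by lentiviral particles and had been selected for stable knockdown, so each group is 1 line with its 3 arrays and no comparator is free of a hairpin. The other groups were wild type cells, a line with a scrambled hairpin (shControl), and the 53BP1 knockdown lines sh53BP1-1 and sh53BP1-2. Every plate of 10 cm was seeded with 200000 cells and harvested after 48 hours, with no damaging agent named.

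ATM is a large serine/threonine kinase of the PI3K-like family. It is activated at DNA double-strand breaks by the MRE11-RAD50-NBN complex, and it phosphorylates CHK2, p53, 53BP1 and histone H2AX. ATR, its relative, responds mainly to single-stranded DNA at stalled replication forks and activates CHK1. Inherited loss of ATM causes ataxia-telangiectasia, and carriers of a defective copy have a raised risk of breast cancer. Part of the ATM protein is cytoplasmic, where it has been linked to oxidative stress sensing, peroxisomes and mitophagy.

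The comparators were matched because the 8 kinase lines fell into 2 expression states, with 4 lines in each. No label gives these states, which were read from the arrays themselves. Between the comparators of the states, 6608 genes (59.8%) differed in limma's moderated test. On an axis built from these genes, shATM-1 lay at 0.19 (its comparators 0.25, 0.18 and 0.29) and shATM-3 at -0.27 (its comparators -0.26, -0.20 and -0.25), as mean signed log2 differences from the midpoint. Both ATM lines were thus displaced toward the state of shATM-3, by 10.7% and 6.51% of the distance between the states. Of the 192 higher genes, 113 were also higher in the comparators of that state, 38 were lower there and 41 did not pass. Of the 46 lower genes, 21 were higher there, 18 lower and 7 did not pass. Over all 11048 genes tested, 3880 were higher there and 2728 lower, so the higher genes leaned to that state more than genes at large. When the displacement times each gene's state difference was taken off, all 192 higher and 46 lower genes kept at least 50% of both of their differences, and 156 and 39 of them were still called. Only 10.7% and 6.51% of each state difference were taken off, with the arrays that chose the genes. Keeping 50% was thus largely set in advance, and the part of the states in these differences was not tested.

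Mean signal ranged from 586.5 to 652.8 on the ATM arrays and from 485.9 to 676.9 on the comparator arrays, and 34.98% to 37.66% of probes were detected on the former against 33.53% to 38.32% on the latter. Epithelial markers were present: KRT5, KRT14, KRT8, KRT18, EPCAM and CDH1 were detected on all 24 kinase-line arrays. Of the endothelial and leukocyte markers, PECAM1, CDH5, VWF, PTPRC and CD3E were detected on none of them, whereas CD68 was detected on all 24. Of the mesenchymal markers, VIM, CDH2, SPARC and THY1 were detected on all 24, COL1A1 on 1, and ZEB1, COL3A1 and PDGFRB on none. On the 12 other arrays CD68, VIM and the endothelial marker PECAM1 were detected on all, CDH2 on 8 and CDH5 on 4. SPARC and THY1 were detected there on none. Luminal markers KRT19, ESR1 and PGR were also detected on none of the 24, whereas KRT19 was detected on all of the 12 other arrays and ESR1 on 5. Loss of the CDKN2A region on 9p21 is a known feature of MCF-10A, yet MTAP, CDKN2A and CDKN2B were detected on all 24 kinase-line arrays and on none of the other 12. These markers go against the MCF-10A label of the kinase lines, and whether those lines and the other 12 arrays hold the same cells is in doubt. The ATM lines and their comparators are alike in whether MTAP, CDKN2A, CDKN2B and KRT19 were detected, but not in every level. MTAP ran from 8.98 to 10.43 on the ATM arrays and from 9.90 to 10.40 on the comparator arrays. CDKN2A ran from 8.73 to 9.24 and from 8.72 to 9.15. By detection, the comparisons among kinase lines stay on one side of this divide, as do those among sh53BP1, shControl and wild type cells. In any comparison of a kinase line with shControl, cell origin and hairpin cannot be told apart.

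ATM was measured by 2 detected probes. With the brighter probe, the shATM-1 arrays read 8.19, 8.10 and 8.04 (normalized log2 intensity), against a lowest, median and highest of 8.24, 8.83 and 9.27 on the 9 matched arrays. The shATM-3 arrays read 8.22, 8.07 and 7.62, against 8.61, 8.79 and 9.15. All 6 ATM arrays lay below all of their matched arrays, by 0.68 ± 0.13 (difference of log2 means ± SE) in shATM-1 and 0.88 ± 0.13 in shATM-3. With the other probe the level was 53.3% and 46.99% of the comparators. That probe also differed between the states of the comparators, by -0.62 on the log2 scale. Another probe was above background on 1 array of the 36. In rank among all genes ordered from the most negative difference, ATM stood at place 31 in shATM-1 and 18 in shATM-3, so several genes differed more than the target in each line. At the mRNA level the knockdown was partial in both lines, and protein was not measured.

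**Figure D1:**
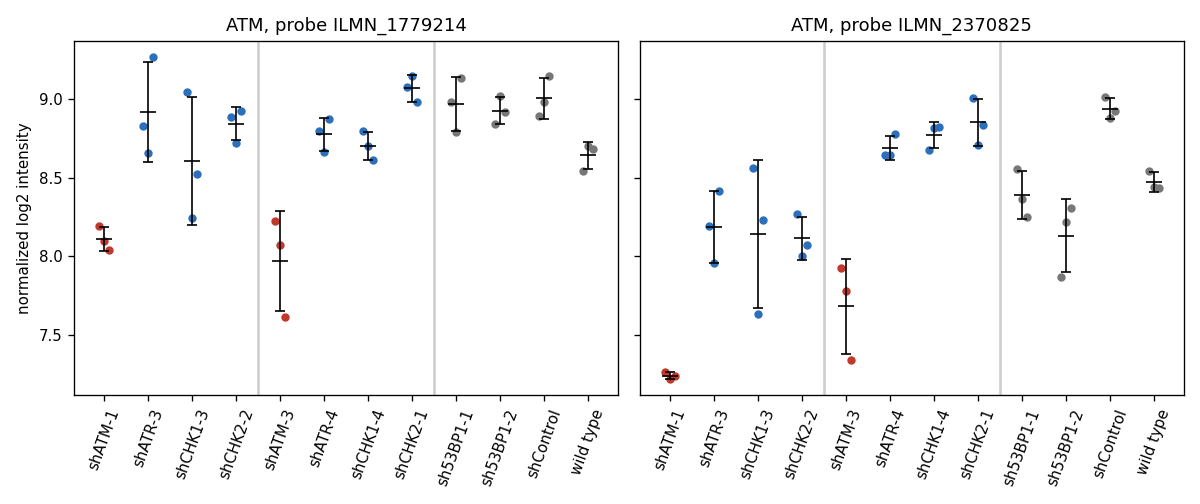
Normalized log2 intensity of the 2 detected ATM probes on each of the 36 arrays (points), with the mean and SD of each group of 3 (bars); red marks the ATM lines, blue their matched kinase lines and grey the other groups. Grey lines separate shATM-1 with its comparators, shATM-3 with its comparators, and the groups outside these contrasts. Each ATM line is the lowest of its block for both probes.

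The mRNAs of the other targeted kinases were not called. CHEK1, which encodes CHK1, read 9.90, 10.08 and 9.92 in shATM-1 (comparators 8.41 to 10.18) and 9.43, 9.54 and 9.68 in shATM-3 (8.41 to 9.95). The comparators include the CHK1 knockdown lines, which read 8.49 and 8.47 on average, the lowest CHEK1 means of the 8 lines. CHEK2 differed by 0.17 ± 0.16 and 0.30 ± 0.16, with the CHK2 knockdown lines among its comparators. None of the 3 ATR probes was above background on more than 2 arrays, so ATR knockdown could not be checked.

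ATM lies on chromosome 11, head to head with NPAT, which encodes a coactivator of histone gene transcription at S phase. The promoter windows of the pair, 250 bases before to 50 after each gene's start in RefSeq (GRCh38.p14), share 72 bases, at chr11:108222817-108222888. They are shown because a hairpin acts on the ATM transcript and not on this shared start region, and NPAT is therefore a neighbour with the same promoter DNA. ATM is at chr11:108222817-108223116 on the plus strand and NPAT at chr11:108222589-108222888 on the minus strand, and capitals mark the shared bases.
ATM: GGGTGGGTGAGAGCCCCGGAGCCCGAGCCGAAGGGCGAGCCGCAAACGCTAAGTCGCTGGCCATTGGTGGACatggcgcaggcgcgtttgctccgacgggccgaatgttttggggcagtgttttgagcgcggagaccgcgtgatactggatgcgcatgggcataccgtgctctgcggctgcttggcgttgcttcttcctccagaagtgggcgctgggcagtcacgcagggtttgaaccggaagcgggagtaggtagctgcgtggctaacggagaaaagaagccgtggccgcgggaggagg
NPAT: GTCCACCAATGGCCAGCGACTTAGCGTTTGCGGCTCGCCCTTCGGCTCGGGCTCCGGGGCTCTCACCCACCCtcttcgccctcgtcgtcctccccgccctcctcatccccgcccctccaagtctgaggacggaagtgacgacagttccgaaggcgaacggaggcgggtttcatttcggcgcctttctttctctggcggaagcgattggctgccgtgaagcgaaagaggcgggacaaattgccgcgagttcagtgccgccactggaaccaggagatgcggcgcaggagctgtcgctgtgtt
NPAT read 6.33, 5.98 and 6.12 in shATM-1 (comparators 5.92, 6.19 and 6.86) and 5.70, 5.71 and 6.09 in shATM-3 (5.84, 6.08 and 6.96). Its differences of -0.11 ± 0.17 and -0.39 ± 0.17 did not pass. Of the 14 measured genes beside ATM on 11q22-q23, 0 met the rule. ACAT1, a mitochondrial acetyl-CoA acetyltransferase, was higher by 0.25 in shATM-1 and differed by -0.03 in shATM-3. CUL5, a cullin of ubiquitin ligases, differed by 0.02 in shATM-1 and was lower by -0.44 in shATM-3.

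The ATM contrasts share no array with each other. In shATM-1, 878 genes were called (7.95%), 605 higher (5.48%) and 273 lower (2.47%). In shATM-3, 1923 were called (17.4%), 1115 higher (10.1%) and 808 lower (7.31%). Beside the 238 genes with the same sign, 65 passed both contrasts with opposite signs (0.588%). The 238 genes are 27.1% of those called in shATM-1 and 12.4% of those called in shATM-3. Across all 11048 genes, which are not independent of each other, the log2 differences of the pair of contrasts had a Pearson r of 0.21. All arrays of both ATM lines lay above all matched arrays for 64 genes (0.579%) and below them for 20 (0.181%), of which 58 and 16 met the rule.

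**Figure D2:**
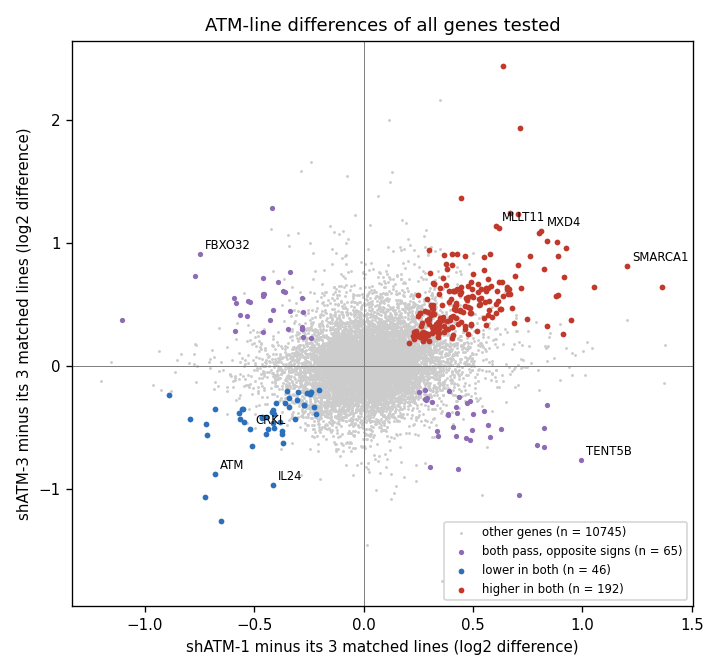
Log2 difference of every tested gene in shATM-1 (horizontal) and shATM-3 (vertical), each against its 3 matched kinase lines; red and blue mark the 192 higher and 46 lower genes, purple the 65 that pass with opposite signs. ATM is among the lower genes farthest from the origin, and none of the red or blue genes reaches a 2-fold difference in both lines.

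The same rule applied to the other kinases gave 22 genes for ATR (0.199%), 69 for CHEK1 (0.625%) and 113 for CHEK2 (1.02%). Genes called with opposite signs numbered 38, 140 and 118. These comparisons share arrays with the ATM contrasts, since each kinase's lines serve as comparators of the others, so the counts are given side by side only. Among genes passing both contrasts the share with the same sign was 78.5% for ATM, 36.7% for ATR, 33.01% for CHEK1 and 48.9% for CHEK2.

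The arrays of a group come from 1 line, and the hairpin and the line cannot be told apart. When the 8 line means were fitted with the lines as replicates, 0 genes were called (0%) in limma's test. The smallest adjusted p was 0.129, and ATM was at that value. At an unadjusted p under 0.05 there were 1178 genes, among them 199 of the 238. With line as a random block and the mean of both ATM lines tested, 129 of the 238 were called. Leaving out a single array kept between 135 and 231 of the 238, the fewest without shATM-1 replicate 2 (113 higher and 30 lower genes called). Without shATM-3 replicate 1, 25 lower genes were called. Without any one of the 24 arrays, 67 higher and 13 lower genes were called every time.

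Differences were modest in size. The 192 higher genes had a median log2 difference of 0.43 (shATM-1) and 0.48 (shATM-3), against 0.02 and 0.00 over all genes tested, and that of the 46 lower genes was -0.41 in each. No gene reached 2-fold in both lines, and 29 higher and 3 lower genes reached 1.5-fold in both. Nearest inside the threshold were GALNT1, MINDY3 and INF2, with differences of 0.31 and 0.27, 0.23 and 0.24, and 0.27 and 0.25. Nearest outside it were CHEK1, TMX4 and COL4A6, with 0.44 and 0.22, 0.36 and 0.25, and 0.32 and 0.34. Other detected probes existed for 47 of the higher genes, and 51 of those 68 probes were positive in both contrasts, 9 passed both and 2 were negative in both. For 16 of the lower genes, 18 of 20 other probes were negative in both and 4 passed both.

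The higher genes with the largest differences among those whose arrays did not overlap are described first. SMARCA1, an ISWI-family chromatin remodelling ATPase, read 7.32, 7.42 and 7.39 in shATM-1, against 5.65, 6.21 and 6.71 (lowest, median, highest) in its matched lines. In shATM-3 it read 8.66, 8.70 and 8.41, against 7.20, 7.90 and 8.21. Both ATM lines were above every matched array, by 2.30-fold and 1.76-fold, although the matched lines themselves differed by -1.60 on the log2 scale between states. MXD4, a MAX partner that opposes MYC at its target genes, read 9.22, 9.17 and 9.24 in shATM-1 (7.83, 8.53 and 8.65 in the matched lines). Its shATM-3 arrays read 8.94, 8.88 and 8.58 (7.46, 7.69 and 7.92), so that the groups were fully apart in each state. ZNF358, a zinc finger gene, was 1.90-fold and 1.95-fold higher, and ZFP90, another, 1.499-fold and 1.57-fold. 

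HOXC8, a homeobox gene of positional identity, read 8.66, 8.80 and 8.77 in shATM-1 (matched lines 7.96, 8.22 and 8.35) and 8.35, 8.08 and 8.26 in shATM-3 (7.22, 7.61 and 7.90). Its neighbours in the HOXC cluster on chromosome 12, HOXC4 and HOXC6, were higher by 0.44 and 0.45, and by 0.38 and 0.37. These were the only HOX or position genes called among 12 measured (against 1.74% of all genes called higher). HOXC4 arrays did not overlap their comparators, and HOXC6 arrays did in at least 1 state.

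MLLT11, a small protein named as a partner in leukaemia translocations, read 9.70, 9.77 and 9.96 in shATM-1 (8.91, 9.25 and 9.36) and 10.45, 10.59 and 10.40 in shATM-3 (8.76, 9.56 and 9.72). The fold was 1.52 for the former and 2.20 for the latter line. RAB40B, a small GTPase that serves as a substrate receptor of cullin ligases, was 1.85-fold and 1.86-fold higher. PCSK1N, an inhibitor of a neuroendocrine prohormone convertase, was detected on all 6 ATM arrays and on 1 of 18 matched arrays. It read 5.52, 5.602 and 5.77 in shATM-1 (4.49, 4.93 and 5.30) and 6.17, 6.19 and 5.95 in shATM-3 (4.60, 4.80 and 5.39). These levels are near the floor of detection. IL11, a cytokine of the IL6 family, was 1.593-fold and 1.504-fold higher. CCDC92, NRBP2 and FAM210B completed the leading higher genes, at 1.89-fold and 1.65-fold, 1.53-fold and 1.61-fold, and 1.48-fold and 1.55-fold.

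**Figure D3:**
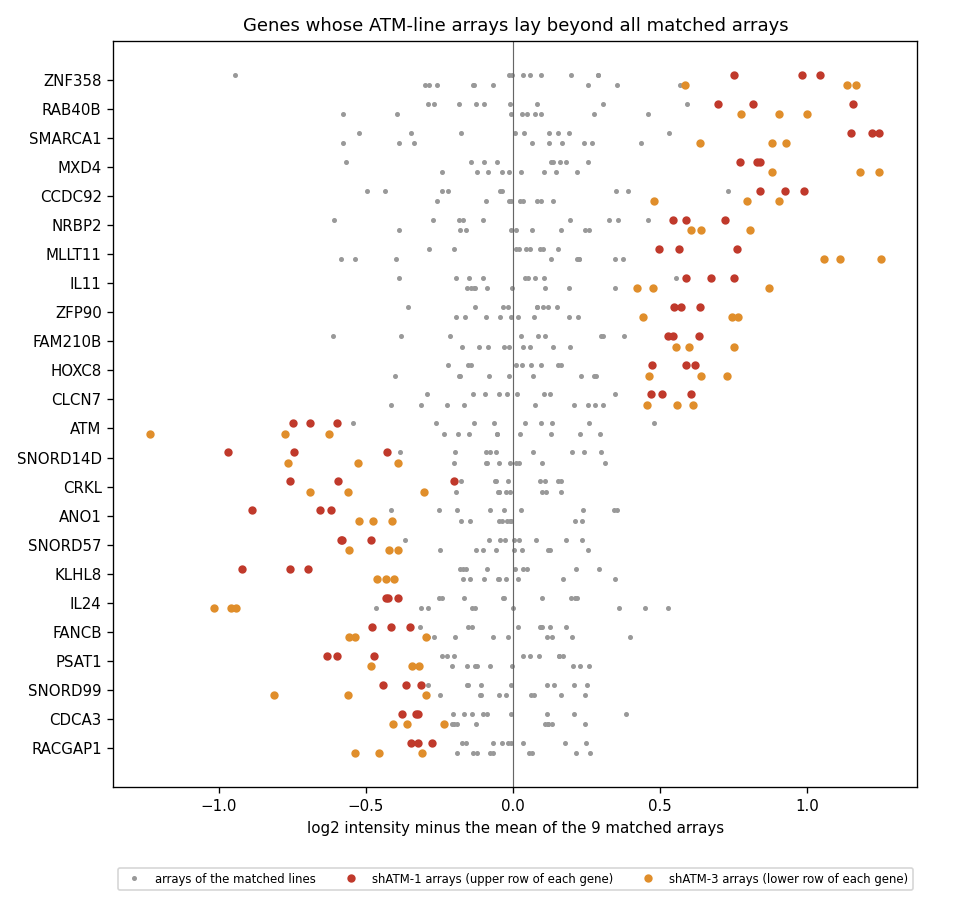
Log2 intensity on each of the 24 kinase-line arrays minus the mean of the 9 matched arrays of the same state, for the 12 higher and 12 lower genes with the largest smaller difference among those whose arrays do not overlap. Red and orange points are the shATM-1 and shATM-3 arrays and grey points the matched arrays; the genes were chosen for this separation.

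The lysosome is the acidic compartment in which hydrolases break down proteins, lipids, sugars and nucleic acids delivered by endocytosis and autophagy. A proton pump acidifies it, a chloride-proton exchanger balances the charge, and mannose 6-phosphate receptors bring its enzymes from the Golgi. A textbook list of 99 lysosomal enzymes and their activators, membrane proteins, sorting receptors and proton pump subunits was drawn up. This was done after such genes had been noticed among the higher genes, so its counts describe and do not test. Of 83 measured, 16 were higher in both ATM lines (19.3%, against 1.74% of all genes), 0 were lower and 0 had opposite signs. Its median differences were 0.10 and 0.19, against 0.02 and 0.00 over all genes. By line, 19 of the 83 were higher and 0 lower in shATM-1 (against 5.48% and 2.47% of all genes). In shATM-3, 31 were higher and 1 lower (against 10.1% and 7.31%). Under the same rule the list gave 1 higher and 0 lower genes for ATR, 0 and 3 for CHEK1, and 0 and 5 for CHEK2, in comparisons that share arrays with these. With the authors' deposited log2 values 18 of the 83 were higher in the ATM lines and 0 lower. Against shControl the direction turned: 35 of the 83 were lower in both ATM lines and 7 higher (against 22.9% and 22.4% of all genes), with medians of -0.52 and -0.20.

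The enzymes and activators among them were TPP1 (a tripeptidyl peptidase), LIPA (acid lipase), FUCA1 (a fucosidase), SGSH (a heparan sulfatase), RNASET2 (an acid ribonuclease), GRN (progranulin) and SUMF1, which activates sulfatases in the endoplasmic reticulum. GRN read 9.84, 9.91 and 9.88 in shATM-1 (9.41, 9.61 and 9.79 in the matched lines) and 10.35, 10.43 and 10.40 in shATM-3 (9.59, 9.83 and 10.07). SUMF1 read 8.81, 8.66 and 8.86 (8.19, 8.48 and 8.66), then 8.64, 8.67 and 8.63 (7.91, 8.18 and 8.34). For both of these genes all ATM arrays lay above all matched arrays, narrowly for SUMF1 in shATM-1. TPP1 was higher by 0.35 and 0.63, LIPA by 0.30 and 0.44, RNASET2 by 0.47 and 0.53, SGSH by 0.62 and 0.46, and FUCA1 by 0.27 and 0.27 on the log2 scale, with some overlap between arrays in each. All 3 shATR-3 arrays lay above all 3 shATM-1 arrays for FUCA1, with a mean of 9.20 against 9.09.

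The membrane proteins and receptors were LAMP1 (a major glycoprotein of the membrane), CLCN7 (the chloride-proton exchanger), TMEM175 (a potassium and proton channel), SIDT2, LAPTM4B, LMBRD1 (needed for cobalamin export) and IGF2R, the cation-independent mannose 6-phosphate receptor. CLCN7 read 10.46, 10.36 and 10.32 in shATM-1 (9.56, 9.83 and 10.20) and 10.63, 10.53 and 10.69 in shATM-3 (9.66, 10.15 and 10.38). IGF2R read 10.69, 10.70 and 10.52 (9.78, 10.25 and 10.45), then 10.97, 10.91 and 10.81 (9.92, 10.46 and 10.78). CLCN7, IGF2R and TMEM175 did not overlap their comparators. LAMP1, the brightest of the group, was higher by 0.30 and 0.20, with arrays that overlapped, and was called in 18 of the 24 fits that left out 1 array. Of the proton pump, ATP6V0E2 was higher by 0.80 and 1.09 and ATP6V0A1 by 0.32 and 0.31, and the other 15 of 17 measured subunits were not called. The ATP6V0E2 arrays overlapped those of shCHK1-3 in shATM-1 and lay above all matched arrays in shATM-3. Those of ATP6V0A1 lay above all matched arrays in shATM-1 and overlapped shATR-4 in shATM-3. The mean of the ATM line was the highest of the 4 lines in both states for 166 of the 192 higher genes. That held for 13 of the 16 lysosomal genes and for 11.6% of all genes. It was the lowest in both for 41 of the 46 lower genes and 8.39% of all. The same arrays chose these genes, so such shares are largely fixed by the rule and do not test it. The exceptions among the 16 were FUCA1, and LAPTM4B and ATP6V0A1, for which shATR-4 (9.70 and 9.94) stood above shATM-3 (9.47 and 9.90).

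**Figure D4:**
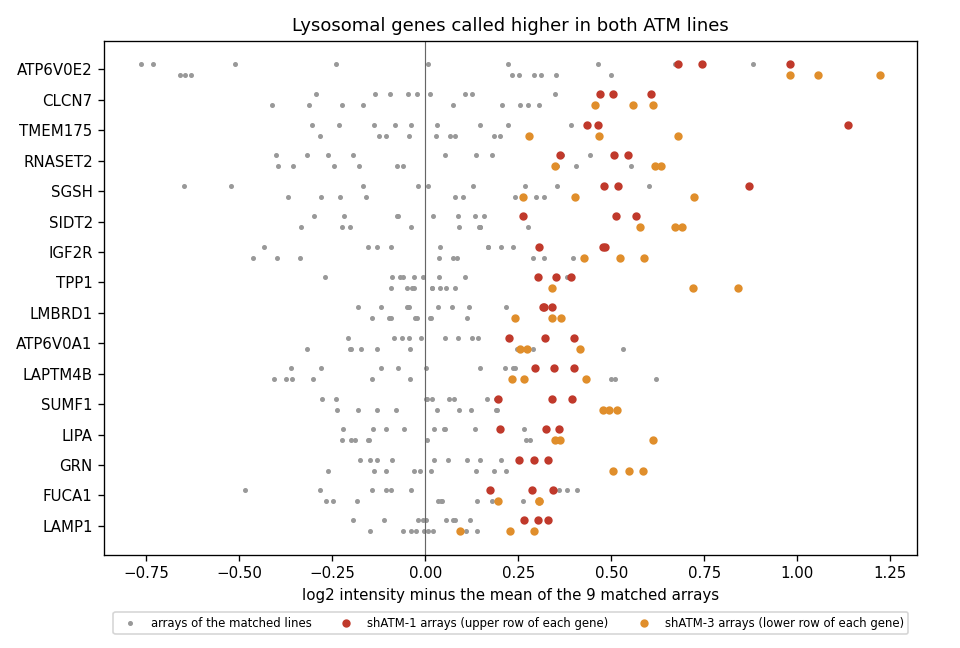
Log2 intensity on each of the 24 kinase-line arrays minus the mean of the 9 matched arrays of the same state, for the 16 lysosomal genes called higher in both ATM lines. Red and orange points are the shATM-1 and shATM-3 arrays and grey points the matched arrays; most ATM arrays lie to the right, and several genes overlap the matched arrays.

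Many lysosomal genes carry the E-box CACGTG near their start, the core of the element bound by TFEB and related factors. Promoter windows of 300 bases were given in RefSeq for 14 of the 16 lysosomal genes, and 5 of these held CACGTG on either strand (35.7%). Among all lysosomal genes tested with a window the share was 27.7% (18 of 65), among all 192 higher genes 11.6% (18 of 155), and among all genes tested 10.4% (921 of 8889). The longer form GTCACGTG, which contains that core, was in 4 of the 14, 15 of the 65, 7 of the 155 and 406 of the 8889. The share in the 14 thus stood beside that of lysosomal genes at large, with small counts, and the share in the higher genes stood near the background. A match is a string of letters and not a measured site. The windows of 3 genes with more than 1 match are shown, with CACGTG in capitals, at chr16:1474979-1475278 (minus strand) for CLCN7, chr13:113296989-113297288 (plus) for LAMP1 and chr6:159968832-159969131 (plus) for IGF2R.
CLCN7: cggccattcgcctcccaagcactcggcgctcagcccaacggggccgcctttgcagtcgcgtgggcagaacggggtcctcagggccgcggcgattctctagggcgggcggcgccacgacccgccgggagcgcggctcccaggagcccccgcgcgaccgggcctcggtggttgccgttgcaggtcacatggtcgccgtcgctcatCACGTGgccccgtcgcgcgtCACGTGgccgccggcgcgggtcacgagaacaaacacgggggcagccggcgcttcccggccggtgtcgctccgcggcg
LAMP1: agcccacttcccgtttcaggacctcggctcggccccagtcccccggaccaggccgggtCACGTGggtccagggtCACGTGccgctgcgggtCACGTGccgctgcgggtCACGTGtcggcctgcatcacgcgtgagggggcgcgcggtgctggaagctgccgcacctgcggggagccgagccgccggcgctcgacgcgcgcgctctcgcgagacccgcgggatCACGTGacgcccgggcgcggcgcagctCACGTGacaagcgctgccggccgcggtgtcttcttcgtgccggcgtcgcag
IGF2R: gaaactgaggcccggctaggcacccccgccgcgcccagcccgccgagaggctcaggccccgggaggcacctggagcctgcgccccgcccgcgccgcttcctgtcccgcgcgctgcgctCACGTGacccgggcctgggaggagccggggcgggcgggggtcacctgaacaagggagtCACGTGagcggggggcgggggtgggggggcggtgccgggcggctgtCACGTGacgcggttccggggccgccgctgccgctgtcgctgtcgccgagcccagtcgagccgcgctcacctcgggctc
CLCN7 held 2 copies, IGF2R 3 and LAMP1 6.

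From the list of autophagy and mitophagy genes, 2 of 21 were higher in both lines (against 1.74% of all genes) and 0 lower. WIPI1, which binds phosphoinositides on forming autophagosomes, read 6.70, 6.56 and 6.96 in shATM-1 (5.36, 6.02 and 6.68) and 8.54, 8.26 and 8.61 in shATM-3 (7.58, 7.72 and 8.32). PINK1, the kinase that marks damaged mitochondria, was higher by 0.38 and 0.30. Both genes overlapped their comparators in part, and both were also higher in the comparators of shATM-3, with -1.80 and -0.89 as the log2 mean of the shATM-1 comparators minus that of the shATM-3 comparators. By line, 4 autophagy genes were higher in shATM-1 (against 5.48% of all genes) and 7 in shATM-3 (against 10.1%). Against shControl, 10 of the 21 were lower in both ATM lines and 2 higher (against 22.9% and 22.4%).

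Matrix and adhesion genes were called in the higher direction. Of 22 measured integrin, protease and matrix turnover genes, 4 were higher in both lines (against 1.74% of all genes) and 0 lower: the protease inhibitors TIMP1 and TIMP2 and the integrin subunits ITGA3 and ITGA6. TIMP2 was 1.52-fold and 1.35-fold higher, and TIMP1, ITGA3 and ITGA6 were between 1.17-fold and 1.30-fold higher. The list's medians were 0.19 and 0.22, and against shControl 0.00 and 0.71, with 9 genes higher and 4 lower (against 22.4% and 22.9% of all genes). ACTA2, smooth muscle actin, was the single mesenchymal gene of 16 called in both lines, and its arrays, 9.78, 9.97 and 9.83 (9.30, 9.41 and 9.63) and 9.35, 9.45 and 9.24 (8.22, 8.81 and 9.09), did not overlap. By line, 6 of the 16 were higher in shATM-1 and 2 in shATM-3 (against 5.48% and 10.1% of all genes). In each line 0 were lower, and the medians were 0.19 and 0.14. The summed level of the mesenchymal list ran from 13.47 to 13.61 on the shATM-1 arrays (13.15 to 13.54 in the matched lines) and from 13.45 to 13.62 on the shATM-3 arrays (12.79 to 13.85), and its part in the other differences was not tested.

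The remaining list genes called higher were few in each list. TXNIP, an arrestin that lowers glucose uptake, was 1.40-fold and 1.61-fold higher, and SLC2A3, a glucose transporter, 1.41-fold and 1.54-fold. PFKFB4, which sets the level of a glycolytic activator, was 1.29-fold and 1.25-fold higher, a call kept when 1 array was left out in 7 of 24 cases. HSPB1, a small heat shock protein listed with NADPH supply because it has been linked to ATM's control of the pentose phosphate pathway, was 1.21-fold higher in each line, and no other gene of the 11 on that list met the rule. UGDH, an NRF2 target, was 1.20-fold and 1.25-fold higher. PARP3, a poly(ADP-ribose) polymerase family member that acts at strand breaks, was 1.32-fold higher in each. CEBPB, a bZIP transcription factor, was 1.21-fold and 1.15-fold higher, and kept its call in 12 of 24. 

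The DNA damage lists held 0 or 1 called gene each, and with 1.74% higher and 0.416% lower over all genes, lists of this size would hold few at the background share. Of 18 genes of ATM activation and early break signalling, 0 met the rule, and the medians were 0.03 and -0.08. Of 27 p53 targets, 0 met it, with medians of -0.04 and 0.08. By line, 1 was higher in shATM-1 and 6 in shATM-3 (against 5.48% and 10.1% of all genes), and 1 was lower in each. Of 24 homologous recombination genes 0 met it, and of 21 genes of end joining and single-strand break repair 1 did (PARP3, higher). By line, 2 of the 24 were lower in shATM-1 and 6 in shATM-3 (against 2.47% and 7.31% of all genes), and 1 was higher in shATM-1. Of 29 NF-kB genes 0 met it and 1 had opposite signs (IL36G). In shATM-1, 6 of the 29 were lower and 0 higher, and in shATM-3, 2 were lower and 2 higher. Their medians were -0.15 and 0.03. The contrasts differed from each other for 5 of the 29, all with shATM-3 above (against 7.8% of all genes). Among PI3K-like kinases and their assembly factors, ATM was the only one of 12.

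Of the lower genes, 3 named ones act in cell division. CDCA3, a mitotic entry factor, read 9.42, 9.36 and 9.41 in shATM-1 (9.54, 9.65 and 10.13) and 9.27, 9.44 and 9.31 in shATM-3 (9.47, 9.78 and 9.92). RACGAP1, a subunit of centralspindlin in cytokinesis, read 10.14, 10.10 and 10.07 (10.25, 10.40 and 10.67) and 10.20, 10.35 and 10.12 (10.47, 10.59 and 10.92). AURKA, a spindle kinase, was lower by -0.27 and -0.32. All 3 genes were below every matched array, and all were small differences. Yet AURKA was the single gene of the 32 on the G2/M list that met the rule. In shATM-1, 1 of the 32 was lower, and in shATM-3, 24 were (against 2.47% and 7.31% of all genes). The medians were -0.08 and -0.32. Against shControl the direction turned, with 19 of the 32 higher in both ATM lines and 0 lower (against 22.4% and 22.9% of all genes). The difference between the contrasts was itself called for 5 of the 32 (against 7.8% of all genes). Summed G2/M levels ran from 15.68 to 15.76 on the shATM-1 arrays (15.75 to 15.82 in the matched lines) and from 15.51 to 15.60 on the shATM-3 arrays (15.71 to 15.94). Of 31 G1/S and replication genes, 0 met the rule and 11 were lower in shATM-3 (against 7.31% of all genes). Bulk arrays cannot tell fewer dividing cells from less RNA per cell.

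FANCB, a subunit of the Fanconi anaemia core complex, was lower by -0.41 and -0.46 without overlap. CRKL, an adaptor of receptor signalling, read 10.60, 10.20 and 10.04 in shATM-1 (10.60, 10.78 and 10.96) and 10.29, 10.42 and 10.68 in shATM-3 (10.79, 10.96 and 11.15), apart from its comparators in shATM-3 and nearly touching them in shATM-1. KLHL8, a substrate adaptor of cullin ligases, was 1.73-fold and 1.35-fold lower. ANO1, a calcium-activated chloride channel, read 9.09, 9.05 and 8.82 in shATM-1 (9.29, 9.68 and 10.06) and 10.54, 10.49 and 10.61 in shATM-3 (10.84, 11 and 11.25). IL24, a cytokine of the IL10 family, was 1.33-fold and 1.96-fold lower. The difference was larger in shATM-3 by limma's test of the contrasts against each other.

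The other fixed lists held 0 to 2 lower genes each, among them members that went the other way. Of 20 genes of ATF4 and the unfolded protein response, 2 were lower (PSAT1 and DDIT3) and 1 higher (CEBPB), of 25 NRF2 genes 1 was lower (GCLM) and 1 higher (UGDH), and of 28 EGFR and ERK genes 2 were lower and 0 higher, against 0.416% lower and 1.74% higher over all genes. PSAT1, a serine synthesis enzyme induced by ATF4, read 9.69, 9.84 and 9.72 in shATM-1 (10.07, 10.38 and 10.49) and 10.51, 10.48 and 10.35 in shATM-3 (10.62, 10.75 and 11.09), with no overlap. DDIT3, which encodes the stress factor CHOP, was 1.48-fold and 1.35-fold lower with overlap. FOSL1, an AP-1 subunit downstream of ERK, was 1.29-fold and 1.54-fold lower, and PHLDA1, another ERK-responsive gene, 1.19-fold and 1.17-fold. FST, the activin antagonist follistatin, was 1.21-fold and 1.25-fold lower. GCLM, a subunit of the enzyme that begins glutathione synthesis, was 1.17-fold and 1.26-fold lower, and ELF3, an epithelial ETS factor, 1.47-fold and 1.28-fold.

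Small nucleolar RNAs guide chemical modification of ribosomal RNA and mostly lie in introns of host genes. Of 130 measured, 5 were lower in both lines (3.85%, against 0.391% of protein-coding genes), 2 were higher and 2 had opposite signs, a class set apart after its values were seen. The class medians were -0.16 in each line, but against shControl 0.59 and 0.21, with 38 of the 130 higher in both lines (29.2%, against 22.4% of all genes) and 6 lower (against 22.9%). SNORD14D read 6.21, 6.44 and 6.75 in shATM-1 (6.80, 7.12 and 7.48) and 5.92, 6.30 and 6.16 in shATM-3 (6.49, 6.68 and 7.003). SNORD57 and SNORD99 were likewise fully below their comparators, by -0.55 and -0.46, and by -0.37 and -0.56. SNORD14A and SNORD30 were lower by -0.41 and -0.36, and by -0.45 and -0.42, with overlap. Whether the probes of SNORD14A and SNORD14D read separate RNAs was not tested. None of the host genes HSPA8, NOP56, SNHG1, SNHG12 and RPS13 met the rule. NOP56, the host of SNORD57, differed by -0.21 and -0.18 and passed in shATM-1 alone. SNHG1, the host of SNORD30, differed by -0.17 and -0.20, and HSPA8, the host of SNORD14D, by 0.03 and -0.17. Both of these passed in shATM-3 alone. SNHG12 (-0.26 and 0.18) and RPS13 (-0.05 and -0.09) passed in neither line. The 2 higher ones, SNORD3A and SNORD3D, are near-identical copies of U3, so their probes may read the same RNA. Per the labels RNA was extracted with a kit made to keep small RNA, and how fully the arrays' labelling covers such short transcripts was not tested.

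Of the 46 lower genes, 10 lie on chromosome 11 (21.7%), which holds 647 of the genes tested (5.86%). They are ANKRD49, ANO1, ATM, CADM1, FAM111B, FOSL1, SLC43A3, SNORD14A, SNORD14D and SNORD30. None of them is among the 14 measured neighbours beside ATM. The chromosome was picked out after its count was seen, and whether the SNORD14A and SNORD14D probes read separate RNAs was not tested.

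The hairpins also differed. The difference between the ATM contrasts was called for 862 genes (7.8%). TENT5B, a poly(A) polymerase family member, read 8.47, 8.51 and 8.44 in shATM-1 (7.16, 7.61 and 7.68) and 5.73, 5.32 and 5.49 in shATM-3 (6.18, 6.25 and 6.45). FBXO32, a muscle-atrophy ubiquitin ligase subunit, went the other way, at 8.51, 8.62 and 8.59 (8.94, 9.26 and 9.81) and 10.42, 10.56 and 10.23 (9.31, 9.45 and 9.78). GPX2, an epithelial glutathione peroxidase, and FYB1, an adaptor, were likewise lower in shATM-1 and higher in shATM-3. FAR2, which makes fatty alcohols, and SCARNA18, a Cajal body RNA, were higher in shATM-1 and lower in shATM-3. Of 38 interferon response genes, 24 were higher in shATM-3 and 1 in shATM-1 (against 10.1% and 5.48% of all genes). The difference between the contrasts was itself called for 19 of them (against 7.8% of all genes), all with shATM-3 above. IRF9, part of the factor that drives them, was the single one that met the rule, at 8.08, 7.79 and 7.78 (7.31, 7.57 and 7.78) in shATM-1 and 9.71, 9.68 and 9.86 (8.32, 8.94 and 9.16) in shATM-3.

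Many of these genes differed in the other direction from shControl, which unlike the ATM lines lacks detected MTAP, CDKN2A and CDKN2B and has detected KRT19. Against shControl, 84 of the 192 higher genes were below it in both ATM lines and 39 above, while over all genes 22.9% were below and 22.4% above. Of the 46 lower genes, 17 were above shControl in both ATM lines and 8 below. ATM itself was below shControl, by -0.90 in shATM-1 and -1.03 in shATM-3. Of 50 named genes that met the rule, 31 had a mean ATM difference of the other sign against shControl. For example, the mean difference of TXNIP was -2.40 and that of PINK1 -2.40 against shControl. "Higher" and "lower" here mean against the other kinase lines, and the values against shControl use the ATM arrays that chose the genes. Cell origin, hairpin and reference cannot be told apart in them.

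The contrasts that chose the genes did not include the 53BP1 and control groups, so the differences among those groups are not fixed by that choice. Their arrays did enter the estimate of spread and the detection filter. With only the 24 kinase arrays fitted, 154 higher and 35 lower genes were called. In each sh53BP1 line, hairpin and line cannot be told apart, and the genes are not independent of each other. 53BP1 is a chromatin reader phosphorylated by ATM that favours end joining at breaks. Of the 192 genes higher in the ATM lines, 108 fell and 11 rose in both sh53BP1 lines against shControl in limma's moderated test at an adjusted p under 0.05, while over all genes 25% fell and 24% rose. Of the 46 lower genes, 26 rose and 7 fell. Median log2 differences of the higher genes were -0.58 in sh53BP1-1 and -0.41 in sh53BP1-2, and of the lower genes 0.56 and 0.53. ATM was not among the genes that changed, at -0.04 and -0.08. Among the named genes, SMARCA1 was lower by -2.73 and -2.27, MLLT11 by -3.09 and -1.99, MXD4 by -1.53 and -2.05, and GRN by -2.05 and -1.69. FANCB was higher by 1.20 and 1.24, AURKA by 1.15 and 0.84, and SNORD99 by 1.85 and 1.75. HOXC8 went against the majority, higher by 0.47 in sh53BP1-1 and 0.52 in sh53BP1-2. Of the 16 lysosomal genes 13 fell and 0 rose, and of the other 67 measured 36 fell and 2 rose.

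**Figure D5:**
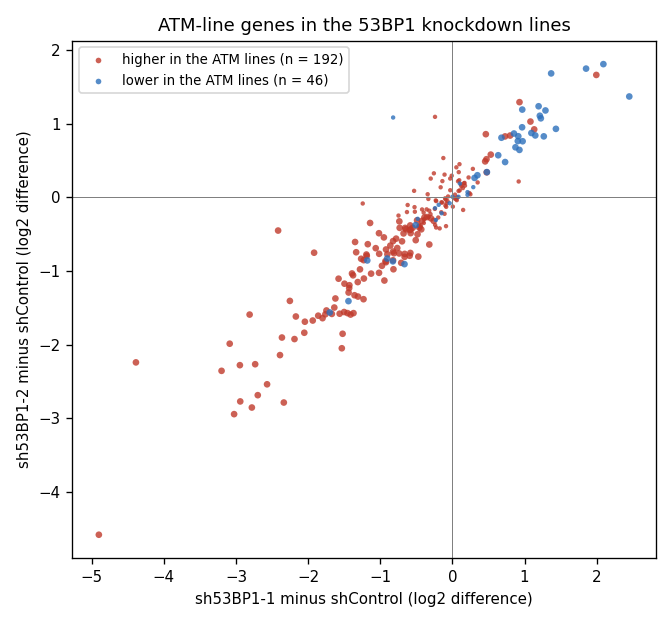
Log2 difference from shControl in sh53BP1-1 (horizontal) and sh53BP1-2 (vertical) for the 192 genes higher (red) and 46 genes lower (blue) in the ATM lines; large points pass in both lines with the same sign. Most red genes lie below 0 in both lines and most blue genes above it.

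Against wild type cells in place of shControl, 89 of the higher genes fell and 14 rose in both sh53BP1 lines, while over all genes 21.3% fell and 17.8% rose. Of the lower genes 21 rose and 7 fell. In shControl against wild type, 74 of the higher genes rose and 25 fell (14.5% and 16% of all genes), and 7 of the lower genes rose and 18 fell. The sh53BP1 and shControl comparisons share the shControl arrays, so they are not separate evidence. Mitotic genes moved with these results: of the 32 on the G2/M list, 27 rose and 1 fell in both sh53BP1 lines against shControl, and 0 rose and 31 fell in shControl against wild type. Against wild type, 7 of the 32 rose and 3 fell in both sh53BP1 lines. The part of cell division in the difference between the ATM-line genes was not tested.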

How the data were processed

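Gene expression was measured on 36 Illumina BeadChip arrays. The deposited table holds probe intensity and a detection p-value per array, per the file headers, with no normalization applied by the authors. A second deposited table holds the authors' log2 values, which differ by at most 0.0013 (log2) from the uncorrected intensity after quantile normalization and were used as an alternative. Intensities were corrected and normalized with neqc in limma 3.58.1 (R 4.3.3, offset 16), which here takes its negative controls from the detection p-values. Of 47231 probes, 30113 name 1 gene, 8 several and 17110 none. Probes detected (p under 0.01) on all 3 arrays of a group were kept, with the probe of highest mean per gene, leaving 11048 genes; 4033 detected probes had no single gene. One model of 12 group means was fitted over the 36 arrays, with Benjamini-Hochberg adjustment within each contrast and a threshold of 0.05.

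Genes were named by rule: ATM and the other targets, the genes beside ATM, the 12 higher and 12 lower genes with the largest smaller difference among those detected on all 24 arrays and not overlapping, genes on or off in the ATM lines, up to 5 called genes of each list in each direction, the 3 genes of each opposite orientation, and 3 genes on each side of the threshold. Lysosomal genes, small nucleolar RNAs and chromosome 11 were chosen after their values were seen. The members and the 28 lists were chosen with earlier results of these data known. The fit was tested on simulated data with noise within groups only. The simulated ATM lines had no line difference of their own, so variation between lines was not tested there. The array number limits precision. Slides are not given in the sources used here. Replicate numbers do not pair the arrays: residuals correlated at -0.00063 on average between arrays of the same number and at 0.00039 otherwise.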

Additional observations from a re-analysis of the deposited data

Results flagged for a closer look

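For 12 named genes the contrasts of shATM-1 and shATM-3, each against its matched lines, differed from each other in limma's test (Benjamini-Hochberg adjusted), given here as shATM-1 minus shATM-3 on the log2 scale ± SE. 6 of them had been picked for opposite signs: FBXO32 (-1.66 ± 0.11, adjusted p = 5e-11), GPX2 (-1.50 ± 0.19, adjusted p = 2.64e-06) and FYB1 (-1.14 ± 0.14, adjusted p = 1.73e-06) were lower in shATM-1 and higher in shATM-3, and TENT5B (1.76 ± 0.15, adjusted p = 3.74e-09), FAR2 (1.77 ± 0.19, adjusted p = 1.97e-07) and SCARNA18 (1.48 ± 0.22, adjusted p = 3.21e-05) the reverse. For these the test is not independent of the choice.

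Among genes with the same sign in both lines, IRF9 (-0.65 ± 0.12, adjusted p = 0.000794) and MLLT11 (-0.53 ± 0.11, adjusted p = 0.00199) were more strongly higher in shATM-3. IL24 (0.56 ± 0.09, adjusted p = 7.12e-05) was more strongly lower in shATM-3, and KLHL8 (-0.36 ± 0.11, adjusted p = 0.0434) was more strongly lower in shATM-1. Beside ATM, CUL5 differed by 0.46 ± 0.12 (adjusted p = 0.0117) and ACAT1 by 0.28 ± 0.09 (adjusted p = 0.0418). Every sample of a line carries the same hairpin and the same state, so hairpin, line and state cannot be told apart for any of the 12.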

How the results depend on the processing

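The counts of 192 higher, 46 lower and 65 opposite genes stayed within 1.5 times with the deposited values, without background correction, without the filter on dim probes, with every probe counted, with only the 24 kinase arrays fitted, without the ATR or CHEK1 comparators, with line as a random block (139 higher, 42 lower, no opposite count, with 129 of the 238 genes among those called) and less the displacement on the state axis (183, 55 and 68, chosen after seeing the data). They did not stay so under other choices. With the 8 lines as replicates, 0 higher and 0 lower genes were called and ATM, at -0.78 for both lines, missed the threshold (adjusted p = 0.129). Against all 6 other kinase lines without matching, 82 were lower and 1162 had opposite signs. Without the CHEK2 comparators, 30 were lower and 36 opposite. Against shControl, 2471 were higher, 2527 lower and 220 opposite. Leaving out 1 array gave 113 to 212 higher (fewest without shATM-1 replicate 2), 25 to 56 lower (fewest without shATM-3 replicate 1) and 42 to 78 opposite (42 without shATM-1 replicate 1 or shATM-3 replicate 1 or 2, and 43 without shATM-1 replicate 3). ATM then ran from -0.74 to -0.61 in shATM-1 and from -1.004 to -0.70 in shATM-3 and stayed called. With a replicate block, 191 were higher, 45 lower and 62 opposite, and PFKFB4 alone among the named genes lost its call. The numbers of members called in both sh53BP1 lines (152) and in shControl (124) stayed within 1.5 times in all settings run, from 143 to 154 and from 103 to 129 when 1 array was left out, and 131 in both sh53BP1 lines with wild type as the control.

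Against shControl the mean ATM difference turned below 0 for RAB40B (-1.44), MXD4 (-1.41), CCDC92 (-0.31), NRBP2 (-1.05), MLLT11 (-0.76), IL11 (-0.32), ZFP90 (-1.58), CLCN7 (-0.66), HSPB1 (-0.59), WIPI1 (-0.93), PINK1 (-2.40), PARP3 (-0.85), CEBPB (-0.95), PFKFB4 (-0.89), ACTA2 (-0.84), TIMP2 (-2.01), TIMP1 (-0.23), TXNIP (-2.40), IGF2R (-0.24) and HOXC6 (-0.48), and above 0 for SNORD14D (0.79), ANO1 (1.04), SNORD57 (1.63), IL24 (3.60), FANCB (1.93), SNORD99 (1.04), CDCA3 (0.91), RACGAP1 (0.56), AURKA (1.15), FST (6.35) and FOSL1 (1.55). The kinase lines and shControl also differ in 9p21 genes and KRT19, so cell origin and reference cannot be told apart here. Of 70 named results, 25 lost their call against all 6 other kinase lines without matching, 15 without the CHEK2 comparators and 13 without the CHEK1 comparators. Of the 64 that had a value, 15 lost it with line as a random block and 50 with the 8 lines as replicates. The number of arrays limits the precision of all of these values.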
